A study of Mus musculus with 8 samples.

Results

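The genes described here encode the working parts of the lysosome: 13 subunits of the vacuolar proton pump (V-ATPase), 6 proteins of the lysosomal membrane and of cholesterol export, 8 cathepsins and 14 other hydrolases and their activators. They were chosen by name as known lysosomal genes, by a rule that uses no measured value but was written with earlier results of these data known. All 41 were found among the 32390 rows of the count table, and all 41 passed the filter on low counts, so that they were tested among 12725 rows. Gastrocnemius muscle came from 4 Nox4 fl/fl mice (control) and 4 MckCre:Nox4 fl/fl mice (knockout, called NOX4-deficient), all male, aged 21 months, on a C57BL/6 background and fed standard chow. Both genotypes carried the floxed *Nox4* alleles, and they differed in Cre, which the *Mck* (muscle creatine kinase) promoter drives mainly in skeletal muscle and more weakly in the heart. The control genotype names no Cre, so that an effect of Cre itself and an effect of losing *Nox4* cannot be told apart. NOX4 is an enzyme that makes hydrogen peroxide, and non-muscle cells of the tissue are not the target of this deletion. Poly(A) RNA was sequenced from 1 library per mouse, and the labels place the 8 libraries in 1 batch.

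Lysosomes digest proteins, lipids, glycans and glycogen that arrive by endocytosis and autophagy. Their hydrolases work at acid pH, which the V-ATPase maintains: its cytosolic V1 sector splits ATP and turns a rotor that drives protons through the V0 sector in the membrane. In muscle the lysosome is best known for clearing glycogen and worn mitochondria, and inherited loss of lysosomal proteins such as acid alpha-glucosidase (Pompe disease) or LAMP2 (Danon disease) damages muscle fibers. Many lysosomal genes are targets of the transcription factor TFEB and its relatives, which bind short palindromic E-boxes near the start of the gene.

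The libraries held 16350548 to 19804661 counts, and the least abundant value of a lysosomal gene was 12 counts (*Glb1*). Levels are given as CPM, the usual scaling of counts to library size, here with TMM factors. *Nox4* itself was low, at 5.09, 2.47, 1.87 and 3.64 CPM in controls 1 to 4 and at 1.74, 2.17, 2.21 and 2.17 CPM in NOX4-deficient mice 1 to 4, so that the groups overlapped. Its log2 fold change was -0.65 ± 0.29 (SE; edgeR adjusted p = 0.207). The tissue label was checked with 10 skeletal muscle genes, whose summed level ranged over the controls from 138000 to 169000 CPM and over the NOX4-deficient mice from 146000 to 174000 CPM. Of 16 macrophage and leukocyte markers, 15 had a negative log2 fold change and 1 was called (*Cd163*), and their sum was 58.2 to 147 CPM in the controls against 29.2 to 72.4 CPM in the knockouts. Of 3 blood markers, 2 were called higher (the globin genes *Hba-a1* and *Hbb-bs*), with a sum of 47.6 to 52.7 CPM against 72.3 to 159 CPM. The 7 slow-fiber markers summed to 294 to 639 CPM against 386 to 1150 CPM, and none of them or of the fibroblast, endothelial, adipocyte, Schwann cell and satellite cell markers tested was called. Lysosomal genes are expressed in all of these cells, and the part of the other cell types in the values below was not tested. Control 4 lay far above the other controls in several of the genes described. The values without it are given for *Atp6v1b2*, *Atp6v1h*, *Npc1*, *Lamp2* and *Sidt2*.

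NOX4-deficient muscle had less mRNA of 4 of the 41 genes: the V1 subunits *Atp6v1h*, *Atp6v1b2* and *Atp6v1a*, and the cholesterol exporter *Npc1*. The mean CPM of *Npc1* fell by 47.7% and that of *Atp6v1h* fell by 46.2%. The mean of *Atp6v1b2* fell by 38.5% and that of *Atp6v1a* fell by 32.3%. No gene of the 41 was called higher. Called means an absolute log2 fold change above 0.5 together with an adjusted p below 0.05 in the quasi-likelihood test of edgeR, adjusted by Benjamini-Hochberg over all rows tested. The 4 genes are 9.76% of the 41, against 3.48% of all rows tested that were called lower, and the 0 called higher stand against 2.68%. In bulk tissue, fewer cells that express a gene and less of its RNA per cell cannot be told apart. With no minimum fold change, 8 of the 41 (19.5%) passed the adjusted p and were lower, against 4.62% of all rows, and 0 were higher, against 3.13%. These 8 added *Atp6v0d1*, *Lamp2*, *Hexa* and *Gaa*. The count fell to 4 or 5 when any 1 of the 8 libraries was left out, and each of the 4 added genes lost its adjusted p in 6 to 8 of those 8 fits. By DESeq2 the same 4 genes were called lower and none higher. All 4 NOX4-deficient values lay below all 4 control values in 11 genes (26.8%, against 8.97% of all rows). In no gene did they all lie above, which was so for 7.2% of all rows.

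**Figure D1:**
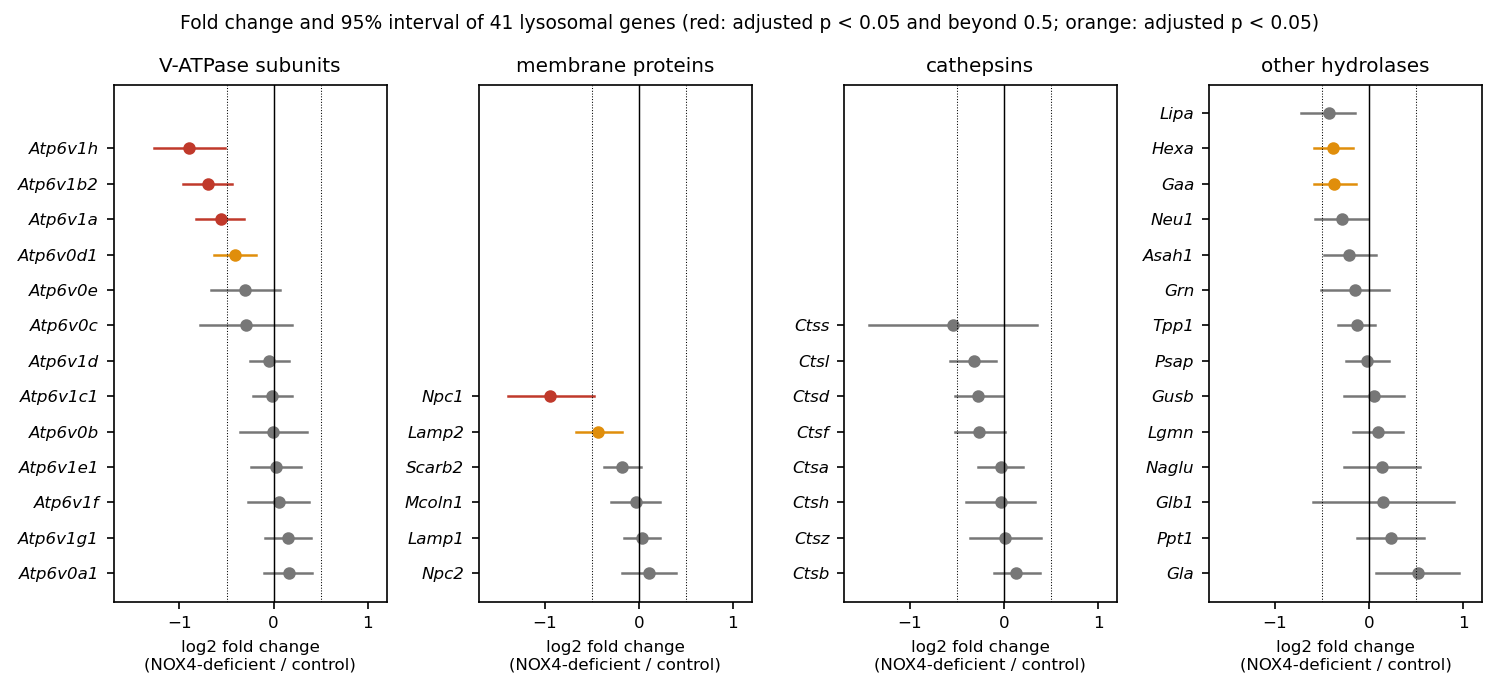
Log2 fold change (x axis, NOX4-deficient over control) of the 41 genes in 4 panels by class; points are the fitted values and lines the 95% intervals over 4 mice a genotype, red for genes called and orange for genes with an adjusted p below 0.05 only. *Npc1* (-0.94) and *Atp6v1h* (-0.90) lie farthest to the left, while 20 genes have an interval that stays between the dotted lines at -0.5 and 0.5.

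The median log2 fold change of the 41 genes was -0.05, beside 0.01 over all rows tested, and 27 of them (65.9%) were negative, beside 47.7% of all rows. For 20 genes the 95% interval of the log2 fold change lay within -0.5 and 0.5, so that a change past the fold threshold was outside their interval. For 13 others that missed the adjusted p the interval reached past 0.5 in at least 1 direction, and the depth and spread of these data could not show whether it changed by that much. The classes had medians of -0.05 (V-ATPase), -0.10 (membrane proteins), -0.15 (cathepsins) and -0.07 (other hydrolases).

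Of the 8 subunits of the V1 sector, 3 were called lower and 5 were not. *Atp6v1a* encodes subunit A, which carries the catalytic site for ATP. It was at 44.0, 40.0, 36.0 and 35.1 CPM in controls 1 to 4 and at 27.4, 29.5, 23.1 and 25.0 CPM in NOX4-deficient mice 1 to 4. The groups did not overlap, and the log2 fold change was -0.56 ± 0.12 (SE; edgeR adjusted p = 0.0139). *Atp6v1a* lay close to the fold threshold: it was -0.49 without NOX4-deficient mouse 3 and -0.50, just inside the threshold, without control 1, and it was not called in either fit, although its adjusted p stayed below 0.05 (0.0448 and 0.041).

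*Atp6v1b2* encodes the B subunit that alternates with A in the V1 ring, in the form used by most tissues. It was at 89.1, 101, 95.6 and 123 CPM in controls and at 57.3, 59.8, 71.2 and 62.7 CPM in NOX4-deficient mice. Control 4 was highest, and the lowest control still exceeded the highest NOX4-deficient mouse. The log2 fold change was -0.70 ± 0.12 (SE; edgeR adjusted p = 0.00489), and -0.60 without control 4 (adjusted p = 0.0105). *Atp6v1h* encodes the regulatory H subunit, which links ATP hydrolysis to the assembled pump. Its values were 31.9, 25.8, 27.8 and 45.8 CPM in controls and 17.4, 14.9, 19.6 and 18.8 CPM in NOX4-deficient mice. Again control 4 was highest and the groups stood apart, with a log2 fold change of -0.90 ± 0.17 (SE; edgeR adjusted p = 0.0102) that became -0.69 without control 4 (adjusted p = 0.0146). Both genes were called in each of the 8 fits that left out 1 library. The exact two-sided permutation test of the CPM values gave p = 0.0286 for each of the 11 genes whose groups did not overlap. This is the smallest value that 4 against 4 mice can give. Groups that do not overlap always give it, so that it adds nothing to the lack of overlap.

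The other V1 subunits build the rotor and the stalks that hold the ring. *Atp6v1d* and *Atp6v1f*, of the rotor, had log2 fold changes of -0.05 and 0.06, and *Atp6v1e1* and *Atp6v1g1*, of the peripheral stalks, 0.02 and 0.15. *Atp6v1c1*, which joins the stalks to V0, had a mean of 35.3 ± 2.41 CPM in the controls and of 35.0 ± 1.41 CPM with NOX4 deficiency (SD, n = 4), with a log2 fold change of -0.01 and a 95% interval of -0.22 to 0.20. The intervals of all 5 lay within -0.5 and 0.5, from -0.27 at the lowest bound (*Atp6v1f*) to 0.40 at the highest (*Atp6v1g1*). The intervals of *Atp6v1b2* (-0.96 to -0.44) and *Atp6v1h* (-1.27 to -0.52) did not touch those of any of the 5, and the difference between subunits was not tested.

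No V0 subunit was called. *Atp6v0d1* encodes the d subunit, which couples the rotor to the proton ring. It was at 42.8, 41.7, 43.1 and 36.8 CPM in controls and at 31.8, 27.6, 32.8 and 31.6 CPM in NOX4-deficient mice. The groups did not overlap, and its log2 fold change of -0.41 ± 0.10 (SE; edgeR adjusted p = 0.0304) was smaller than the fold threshold. *Atp6v0c*, the proteolipid of the proton ring, was at 22.5, 29.7, 31.8 and 30.4 CPM in controls and at 21.1, 17.6, 37.1 and 17.9 CPM in NOX4-deficient mice. NOX4-deficient mouse 3 was above every control while mice 1, 2 and 4 were below every control. The log2 fold change of *Atp6v0c* was -0.29 ± 0.22 (SE; edgeR adjusted p = 0.485), and without mouse 3 it was -0.59 and called lower (adjusted p = 0.0455). *Atp6v0e* was at -0.30 (95% interval -0.67 to 0.07), *Atp6v0b*, a relative of the proteolipid, at -0.00 (-0.36 to 0.35) and *Atp6v0a1*, the a subunit through which protons enter and leave, at 0.16 (-0.10 to 0.41).

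**Figure D2:**
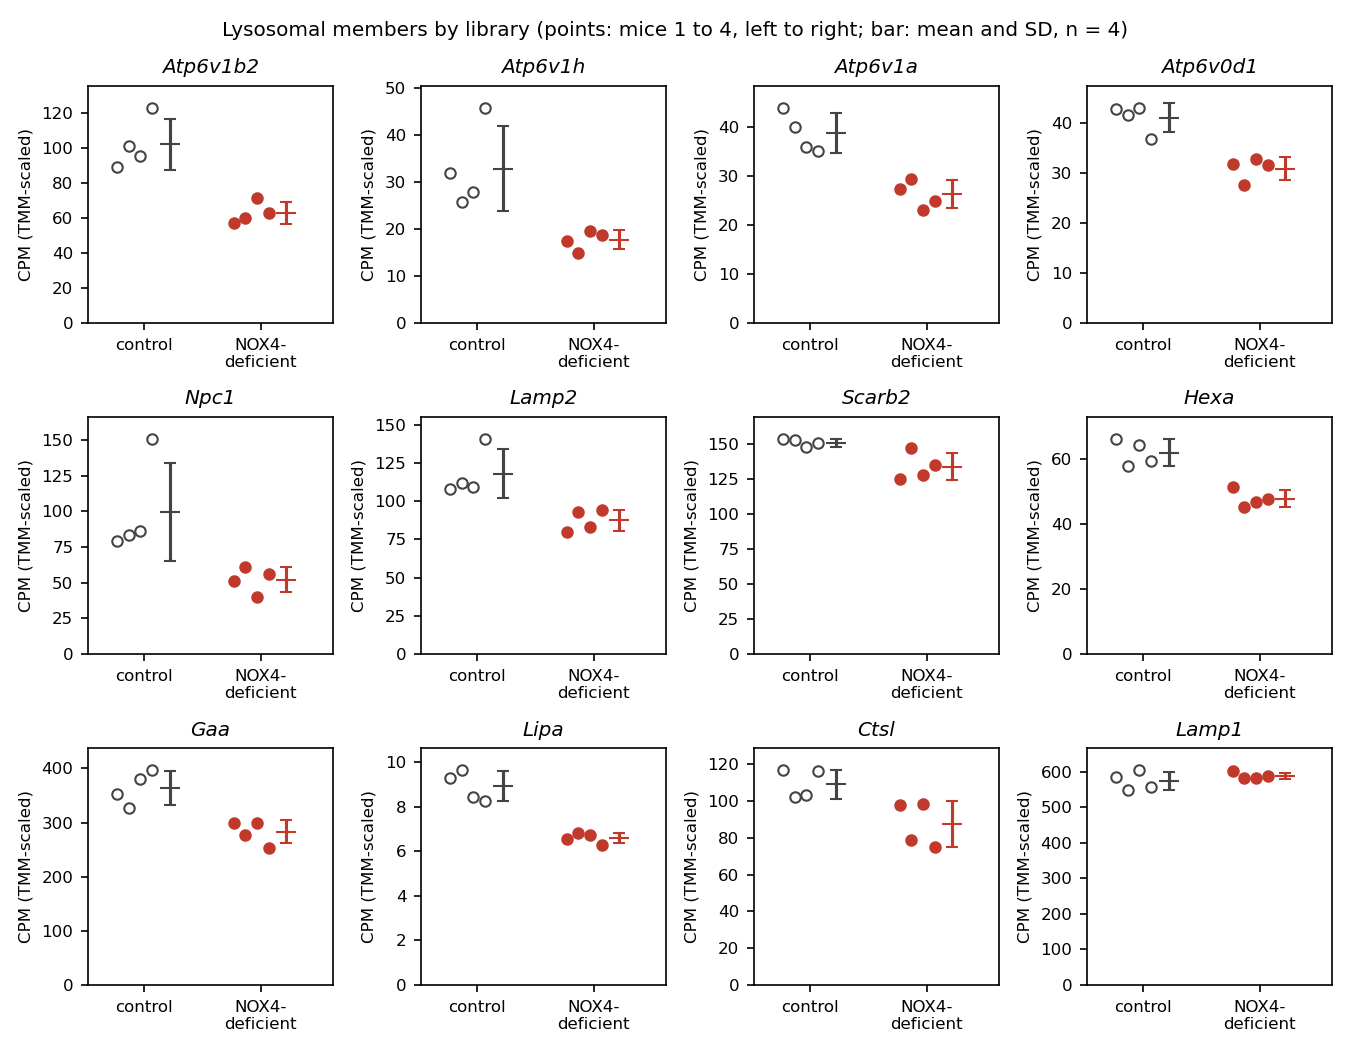
CPM (y axis, from 0) of 12 lysosomal genes in control (open points) and NOX4-deficient mice (filled points), mice 1 to 4 from left to right, with mean and SD (n = 4). The 2 genotypes do not overlap in any panel but that of *Lamp1*, and control 4 stands above the other controls in *Atp6v1b2* (123 CPM), *Atp6v1h* (45.8 CPM), *Npc1* (151 CPM) and *Lamp2* (141 CPM).

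Levels of different subunits were compared as CPM per kb of the principal coding transcript (GENCODE M21). In control muscle the order began with *Atp6v1g1* (128 CPM per kb), *Atp6v1e1* (72.1), *Atp6v1f* (53.9) and *Atp6v0b* (50.6). The B subunit *Atp6v1b2* was at 36.1 CPM per kb in control and 22.2 in NOX4-deficient muscle, *Atp6v1h* at 16.0 and 8.62, and the A subunit *Atp6v1a* at 9.16 and 6.20. *Atp6v0a1* and *Atp6v1d* were level at 26.0 CPM per kb in control, and *Atp6v0d1* (25.2) and *Atp6v0c* (24.2) lay next to them, differences smaller than the spread among mice. *Atp6v1a* was the least abundant of the 8 V1 subunits per length, and *Atp6v0e* (4.52) the least abundant of the 5 V0 subunits chosen. *Atp6v0e2*, another form of the e subunit and outside the chosen genes, was higher, at 28.2 CPM per kb in control muscle. It was at 25.7 in NOX4-deficient muscle and was not called, with a log2 fold change of -0.13 (95% interval -0.41 to 0.15).

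Several tissue-restricted forms of the subunits were at or near 0. *Atp6v1e2* and *Atp6v1g3* had 0 counts of 146659833 in all 8 libraries, which allows a level of up to 0.0205 CPM. *Atp6v1b1*, the other form of subunit B, had 2 counts, *Atp6v1c2* 3 and *Atp6v0d2* 9. None of these was high enough to be tested. Of the other a subunits, *Atp6v0a2* was at 6.70 CPM per kb in control muscle, *Tcirg1*, the osteoclast form, at 1.09 and *Atp6v0a4* at 0.139 (78 counts in all libraries). These 3 were tested and not called. These floors and counts cover counting error only.

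**Figure D3:**
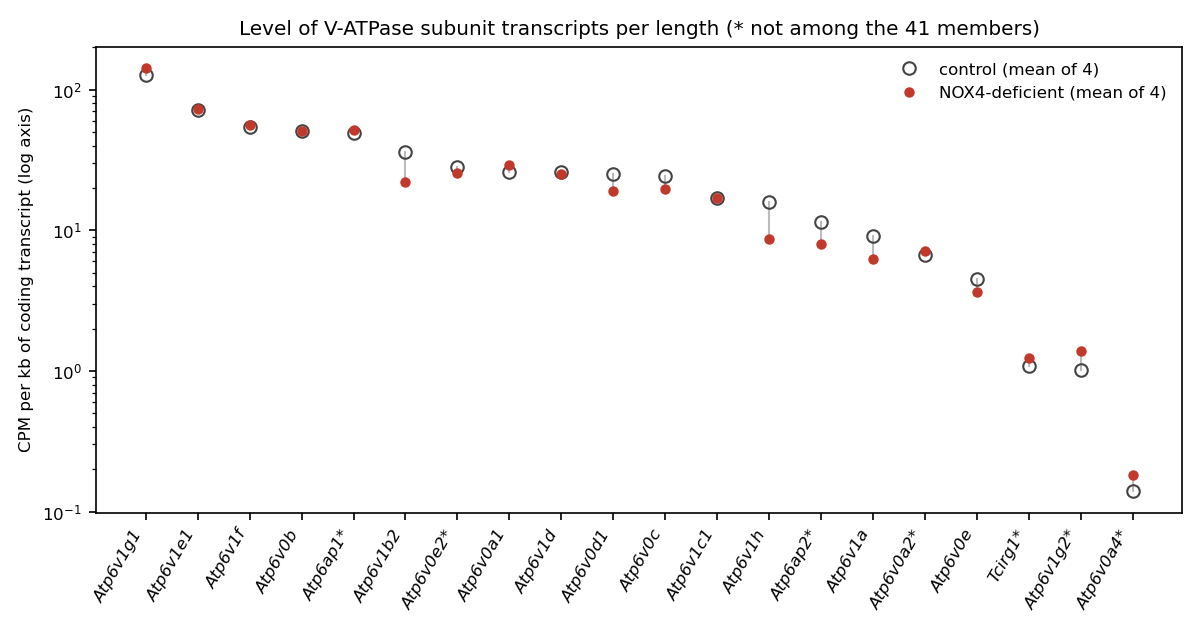
Mean level of the V-ATPase subunits and accessory proteins that were tested (*Rnasek*, a name with repeated rows, is not shown), as CPM per kb of coding transcript on a log axis, in control (open) and NOX4-deficient muscle (filled), 4 mice each, ordered by the control level; an asterisk marks genes outside the 41. Among the genes shown, the gap between the points is widest for *Atp6v1h* (16.0 to 8.62) and *Atp6v1b2* (36.1 to 22.2), while *Atp6v1e1* and *Atp6v0b* coincide.

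Start-site sequences were examined for the E-box CACGTG, for TCACGTGA, which contains it and is the inner part of the motif that TFEB binds in lysosomal genes, and for TGACNNNGC, the core of the element that NFE2L2 binds. The window ran from 250 bases before to 50 bases after the start, on both strands, in RefSeq sequence of build GRCm38.p6, and 33 of the 41 genes matched an entry. The others were *Atp6v1b2*, *Atp6v1c1*, *Atp6v1g1*, *Atp6v1h*, *Npc1*, *Ctsb*, *Ctsh* and *Asah1*. CACGTG stood in 15 of 33 (45.5%), beside 11.9% of the 9718 tested genes with an entry and 8.09% of 27025 genes in all. TCACGTGA stood in 7 (21.2%, beside 2.29% of tested genes and 1.12% of all). TGACNNNGC stood in 9 (27.3%, beside 17.1% and 14.0%). The 4 windows below are shown because they set these letters beside different responses: *Atp6v1a* holds all 3 motifs and was called lower, *Atp6v0d1* and *Mcoln1* hold TCACGTGA with log2 fold changes of -0.41 and -0.03, and *Hexa* holds TGACNNNGC alone at -0.38. Capitals mark the motifs. *Atp6v1a* lies at chr16:44139210-44139509 on the minus strand, *Atp6v0d1* at chr8:105566015-105566314 on the minus strand, *Mcoln1* at chr8:3500269-3500568 and *Hexa* at chr9:59539290-59539589, both on the plus strand.
Atp6v1a: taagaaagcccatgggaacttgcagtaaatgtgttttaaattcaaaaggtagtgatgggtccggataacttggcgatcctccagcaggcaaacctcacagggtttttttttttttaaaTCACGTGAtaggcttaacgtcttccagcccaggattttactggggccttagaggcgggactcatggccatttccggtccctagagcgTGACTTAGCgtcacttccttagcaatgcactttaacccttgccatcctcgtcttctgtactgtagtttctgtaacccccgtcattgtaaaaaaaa
Atp6v0d1: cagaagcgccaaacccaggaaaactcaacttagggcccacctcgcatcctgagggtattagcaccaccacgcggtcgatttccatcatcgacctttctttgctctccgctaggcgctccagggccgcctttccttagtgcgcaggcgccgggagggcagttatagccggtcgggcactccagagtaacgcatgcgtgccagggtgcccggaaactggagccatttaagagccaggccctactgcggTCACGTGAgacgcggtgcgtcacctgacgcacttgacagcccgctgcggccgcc
Mcoln1: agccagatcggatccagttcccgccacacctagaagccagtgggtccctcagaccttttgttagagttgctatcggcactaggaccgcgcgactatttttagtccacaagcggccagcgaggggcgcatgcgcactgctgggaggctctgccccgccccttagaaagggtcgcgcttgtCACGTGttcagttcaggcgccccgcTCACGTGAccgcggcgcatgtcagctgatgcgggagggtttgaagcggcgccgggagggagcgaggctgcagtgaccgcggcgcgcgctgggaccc
Hexa: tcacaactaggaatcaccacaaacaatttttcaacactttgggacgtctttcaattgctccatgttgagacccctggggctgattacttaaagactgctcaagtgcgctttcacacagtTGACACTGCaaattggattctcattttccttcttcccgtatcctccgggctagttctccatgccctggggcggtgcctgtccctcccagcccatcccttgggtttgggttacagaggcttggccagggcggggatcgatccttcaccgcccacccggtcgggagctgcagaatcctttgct
In *Atp6v1a* the E-box began 131 bases and the TGACNNNGC match 45 bases before the start, and in *Atp6v0d1* the E-box began 3 bases before it. *Mcoln1* had E-boxes 71 and 45 bases and *Hexa* a TGACNNNGC match 131 bases before the start. Whether the motifs go with the response was not tested, and of the 4 genes called lower *Atp6v1a* alone had an entry. The 15 genes with CACGTG had a median log2 fold change of -0.04 and the 18 without it -0.09, with 3 and 2 genes past the adjusted p. For TCACGTGA the medians were -0.27 in 7 genes and -0.03 in 26, with 2 and 3 genes past the adjusted p, and the 7 ranged from -0.56 (*Atp6v1a*) to 0.52 (*Gla*). For TGACNNNGC they were -0.13 in 9 genes and -0.04 in 24. A match describes letters in this window and is not a measured binding site.

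Among the membrane proteins, *Npc1* was called and *Lamp2* passed the adjusted p alone. NPC1 lifts cholesterol out of the lysosome. *Npc1* was at 79.1, 83.1, 85.9 and 151 CPM in controls and at 51.2, 61.3, 40.3 and 55.9 CPM in NOX4-deficient mice. Control 4 was far above the other controls, which were close together, and all controls were above all NOX4-deficient mice. The log2 fold change of *Npc1* was -0.94 ± 0.21 (SE; edgeR adjusted p = 0.0215). Without control 4 it was -0.67 and still called (adjusted p = 0.0192), while it lost the call without NOX4-deficient mouse 1 (-0.92, adjusted p = 0.0647) and without mouse 3 (-0.82, adjusted p = 0.0583). *Rmc1*, which overlaps *Npc1* on the opposite strand, had a mean of 8.99 CPM beside 76.0 CPM for *Npc1*, and the unstranded libraries cannot divide the shared reads. *Npc2*, the soluble partner that hands cholesterol to NPC1, had a mean of 34.3 ± 3.41 CPM in the controls and of 37.0 ± 6.41 CPM with NOX4 deficiency (SD, n = 4), with a log2 fold change of 0.11 (95% interval -0.18 to 0.40).

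LAMP1 and LAMP2 are the major glycoproteins that line the lysosomal membrane. *Lamp2* was at 108, 112, 109 and 141 CPM in controls and at 80.1, 92.8, 83.1 and 94.1 CPM in NOX4-deficient mice, without overlap. Its log2 fold change of -0.43 ± 0.11 (SE; edgeR adjusted p = 0.038) became -0.32 without control 4 (adjusted p = 0.0956). *Lamp1* was the more abundant per length in control (257 against 32.6 CPM per kb for *Lamp2*) and lay at 585, 548, 606 and 558 CPM in controls and 601, 583, 582 and 587 CPM in NOX4-deficient mice. These values overlapped throughout, and the log2 fold change of *Lamp1* was 0.04 (95% interval -0.16 to 0.23). *Scarb2* encodes LIMP2, the receptor that carries glucocerebrosidase to the lysosome. It was at 154, 153, 148 and 151 CPM in controls and at 125, 147, 128 and 135 CPM in NOX4-deficient mice, which stood apart by a narrow gap. Its log2 fold change was -0.18 ± 0.09 (SE; edgeR adjusted p = 0.261). The calcium channel gene *Mcoln1* was at -0.03 (95% interval -0.29 to 0.23).

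No cathepsin passed the adjusted p. Cathepsins are the proteases of the lysosome, *Ctsd* an aspartic protease, *Ctsa* a serine carboxypeptidase and the others cysteine proteases. *Ctsl* was at 117, 102, 103 and 116 CPM in controls and at 97.5, 78.8, 98.4 and 74.9 CPM in NOX4-deficient mice. The groups of *Ctsl* did not overlap, but NOX4-deficient mice 1 and 3 came close to the lowest controls, and the log2 fold change was -0.32 ± 0.11 (SE; edgeR adjusted p = 0.109). *Ctsd*, the most abundant cathepsin, was at 341, 316, 333 and 388 CPM in controls and at 328, 244, 309 and 266 CPM in NOX4-deficient mice. Mice 2, 3 and 4 were below every control and mouse 1 was within the range of the controls, with a log2 fold change of -0.27 ± 0.12 (SE; edgeR adjusted p = 0.194). *Ctsf* was at 25.4, 20.2, 22.0 and 20.4 CPM in controls and 19.9, 16.5, 20.3 and 17.0 CPM in NOX4-deficient mice, at -0.26 ± 0.12 (SE; edgeR adjusted p = 0.229).

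*Ctss*, the cathepsin known from macrophages and other antigen-presenting cells, was low, at 8.63, 3.76, 4.39 and 4.11 CPM in controls and 4.09, 2.68, 6.10 and 1.41 CPM in NOX4-deficient mice. Control 1 had the highest and NOX4-deficient mouse 4 the lowest value, and these were also the libraries with the highest (147 CPM) and lowest (29.2 CPM) sum of the 16 macrophage and leukocyte markers. The log2 fold change of *Ctss* was -0.54 ± 0.40 (SE; edgeR adjusted p = 0.47), with an interval of -1.43 to 0.35 that leaves its direction undetermined. *Ctsa*, *Ctsh* and *Ctsz* lay between -0.04 and 0.02, and *Ctsb* at 0.13 (95% interval -0.11 to 0.38). Genes on the opposite strand overlap *Ctsb* (*Fdft1*, 74.3 CPM), *Ctsz* (*Nelfcd*, 20.8 CPM, about the level of *Ctsz* itself at 21.0 CPM) and *Ctsa* (*Neurl2* and *Pltp*, 12.5 and 8.68 CPM), so that their values may hold reads of these neighbors.

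Among the 14 other hydrolases and activators none was called. *Hexa* and *Gaa* passed the adjusted p with changes below the fold threshold. *Hexa*, the alpha subunit of beta-hexosaminidase, which degrades gangliosides, was at 66.4, 57.8, 64.4 and 59.6 CPM in controls and at 51.4, 45.3, 47.0 and 47.7 CPM in NOX4-deficient mice. The groups stood apart, and the log2 fold change was -0.38 ± 0.09 (SE; edgeR adjusted p = 0.0312). *Gaa*, the acid alpha-glucosidase that digests glycogen in the lysosome, was at 352, 327, 380 and 398 CPM in controls and at 300, 278, 299 and 254 CPM in NOX4-deficient mice. Here too the groups stood apart, at -0.37 ± 0.10 (SE; edgeR adjusted p = 0.0479), and without NOX4-deficient mouse 4 the log2 fold change of *Gaa* was -0.30 (adjusted p = 0.141). The lipase gene *Lipa*, whose product splits cholesteryl esters and triglycerides taken up by the cell, was at 9.29, 9.67, 8.45 and 8.27 CPM in controls and at 6.56, 6.83, 6.73 and 6.27 CPM in NOX4-deficient mice. These groups were narrow and stood apart, and a log2 fold change of -0.43 ± 0.13 missed the adjusted p (SE; edgeR adjusted p = 0.062).

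*Gla*, alpha-galactosidase A, had the largest positive value among the 41 genes. It was at 2.46, 3.50, 3.21 and 2.13 CPM in controls and at 4.45, 3.89, 3.47 and 4.40 CPM in NOX4-deficient mice, where mouse 3 fell just below control 2. Its log2 fold change was 0.52 ± 0.21 (SE; edgeR adjusted p = 0.154). *Neu1*, the lysosomal sialidase, was at -0.29 (95% interval -0.57 to -0.01, edgeR adjusted p = 0.196), *Asah1*, acid ceramidase, at -0.21, the growth factor precursor progranulin *Grn* at -0.15 and the peptidase *Tpp1* at -0.13. *Psap*, the precursor of the saposins and the most abundant of the 41 per length (323 CPM per kb in control), was at -0.02 (95% interval -0.24 to 0.21). The legumain gene *Lgmn*, the glycosidases *Gusb*, *Naglu* and *Glb1* and the thioesterase *Ppt1* lay between 0.05 and 0.23, and none of these passed the adjusted p. *Glb1* was the least abundant per length (0.602 CPM per kb), and its interval of -0.60 to 0.90 could not show a change of moderate size. *Cap1* overlaps *Ppt1* on the opposite strand, at 19.5 CPM beside 11.5 CPM for *Ppt1*.

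**Figure D4:**
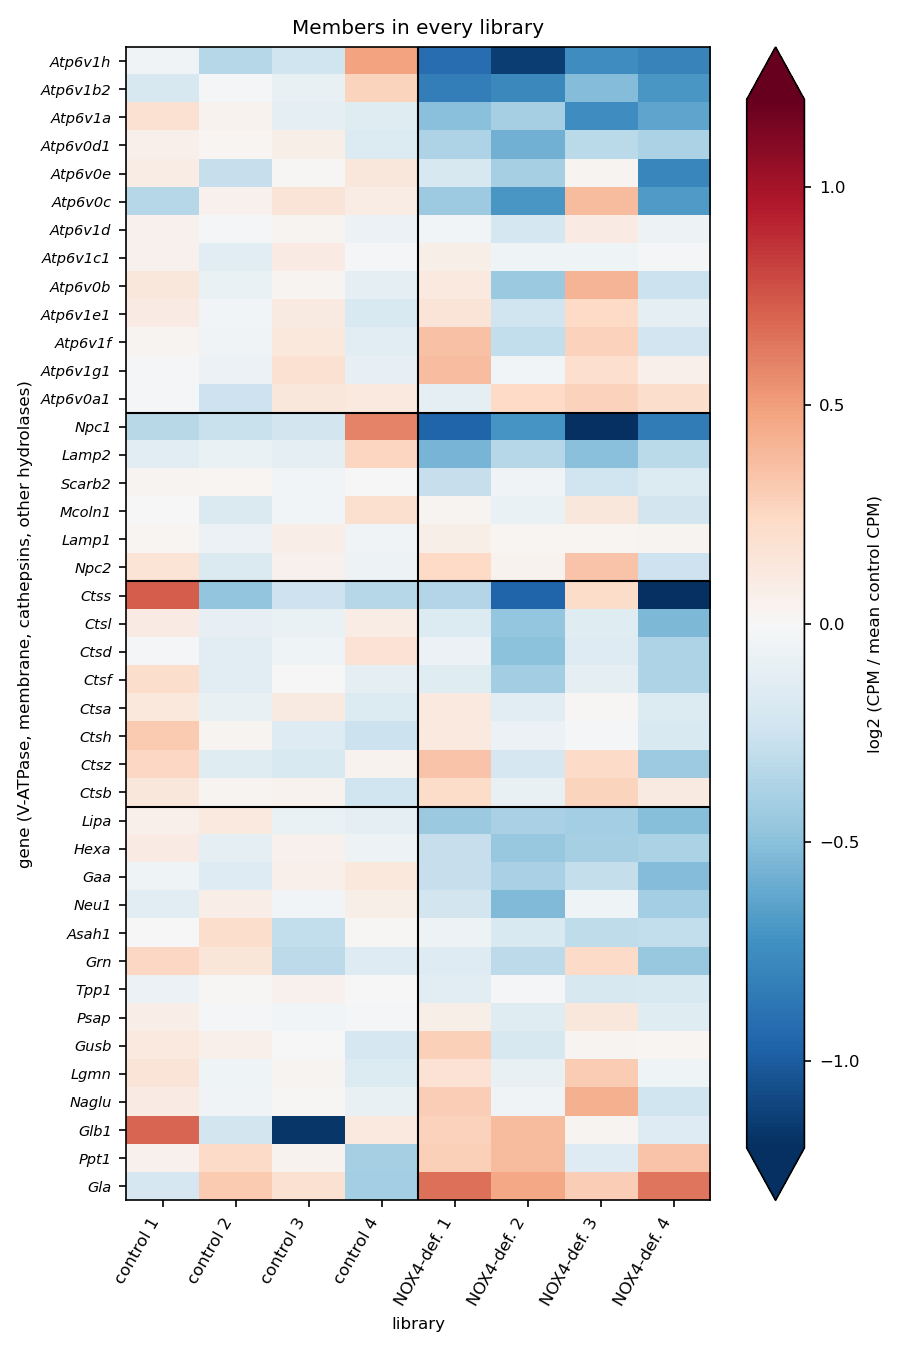
Each of the 41 genes (lines, grouped by class) in each of the 8 libraries (columns), as log2 of CPM over the mean control CPM, blue for lower and red for higher. The NOX4-deficient columns are blue throughout for *Atp6v1h*, *Atp6v1b2*, *Atp6v1a* and *Npc1*, and in the lower part many genes are redder in NOX4-deficient mice 1 and 3 than in mice 2 and 4.

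The NOX4-deficient mice also differed among themselves. In 25 of the 41 genes, mice 1 and 3 were both above mice 2 and 4, and in 4 genes the reverse held, whereas these orders were found in 26.1% and 27.3% of all rows tested. The 25 genes included all 8 cathepsins, *Atp6v0b*, *Atp6v0c*, *Gaa* and *Psap*, but none of the 4 genes called. In controls the same orders were found in 16 and 4 genes, against 17.1% and 18.0% of all rows. The sum of blood markers was also highest in NOX4-deficient mice 1 (159 CPM) and 3 (118 CPM), against 80.0 and 72.3 CPM in mice 2 and 4, and so was the sum of macrophage and leukocyte markers, at 68.0 and 72.4 CPM against 57.5 and 29.2 CPM. The skeletal muscle genes (159000 and 174000 CPM against 146000 and 154000 CPM) and adipocyte markers (189 and 193 CPM against 187 and 158 CPM) had this order too. The sums of slow-fiber, fibroblast, endothelial, Schwann cell and satellite cell markers did not. The part of these cells in the pattern was not tested, and the libraries of 1 genotype carry no label that divides them in this way.

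Other genes of the lysosomal pathway were counted from lists of 108 genes, of which 93 were tested. Of these, 2 were called lower and 0 higher, both below the shares of all rows tested (3.48% lower and 2.68% higher). The median log2 fold change was -0.00. *Atp6ap2*, an accessory protein needed to assemble the V-ATPase, was at 26.8, 25.2, 22.7 and 30.9 CPM in controls and at 17.0, 17.1, 20.9 and 19.2 CPM in NOX4-deficient mice. The groups did not overlap, and its log2 fold change of -0.51 ± 0.12 (SE; edgeR adjusted p = 0.0281) lay close to the fold threshold. The call was lost in 6 of the 8 fits without 1 library, each with an adjusted p above 0.05 (0.0554 to 0.0825) and log2 fold changes of -0.53 to -0.42. The other 7 V-ATPase genes tested were not called. *Flcn*, folliculin, which regulates the mTORC1 kinase and TFEB at the lysosome, was at 78.5, 96.3, 78.0 and 79.1 CPM in controls and at 59.5, 61.3, 44.4 and 47.3 CPM in NOX4-deficient mice. All controls exceeded all NOX4-deficient mice, and the log2 fold change of *Flcn* was -0.64 ± 0.13 (SE; edgeR adjusted p = 0.0113), called in each of the 8 fits that left out 1 library.

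The other 20 regulators tested were not called by edgeR. *Rragb*, a Rag GTPase that recruits mTORC1, was at -0.76 (edgeR adjusted p = 0.0598), and by DESeq2 it was called lower (-0.77, adjusted p = 0.0318). *Tfeb* was at 94.7, 94.5, 106 and 106 CPM in controls and at 105, 89.6, 95.2 and 90.0 CPM in NOX4-deficient mice, with a log2 fold change of -0.08 (95% interval -0.29 to 0.13, edgeR adjusted p = 0.679). Its relatives *Tfe3* and *Mitf* were at -0.09 and -0.19. Among 29 other lysosomal enzymes and activators, 20 were positive and 9 negative with a median of 0.10. Of the 14 hydrolases above, 6 were positive and 8 negative, and 47.7% of all rows tested were negative. The difference between the lists was not tested. *Fuca1*, which removes fucose, was higher at an adjusted p of 0.0416 by edgeR with a log2 fold change of 0.39, and the adjusted p was above 0.05 in each of the 8 fits without 1 library (0.0589 to 0.113). *Manba*, which removes mannose, was at 0.59 (edgeR adjusted p = 0.0584), and by DESeq2 it was called higher (0.58, adjusted p = 0.0379). Among 23 other membrane proteins, *Sidt2* passed the adjusted p at -0.48 (0.0407 by edgeR), a value that became -0.34 (0.086) without control 4, and *Tmem192* was at 0.28. None of the 9 sorting genes or 3 cathepsin inhibitors tested was called, with *Sort1* at -0.47 (edgeR adjusted p = 0.0964), *M6pr* at -0.14, *Cstb* at -0.23 and *Cst6* at -0.09.

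**Figure D5:**
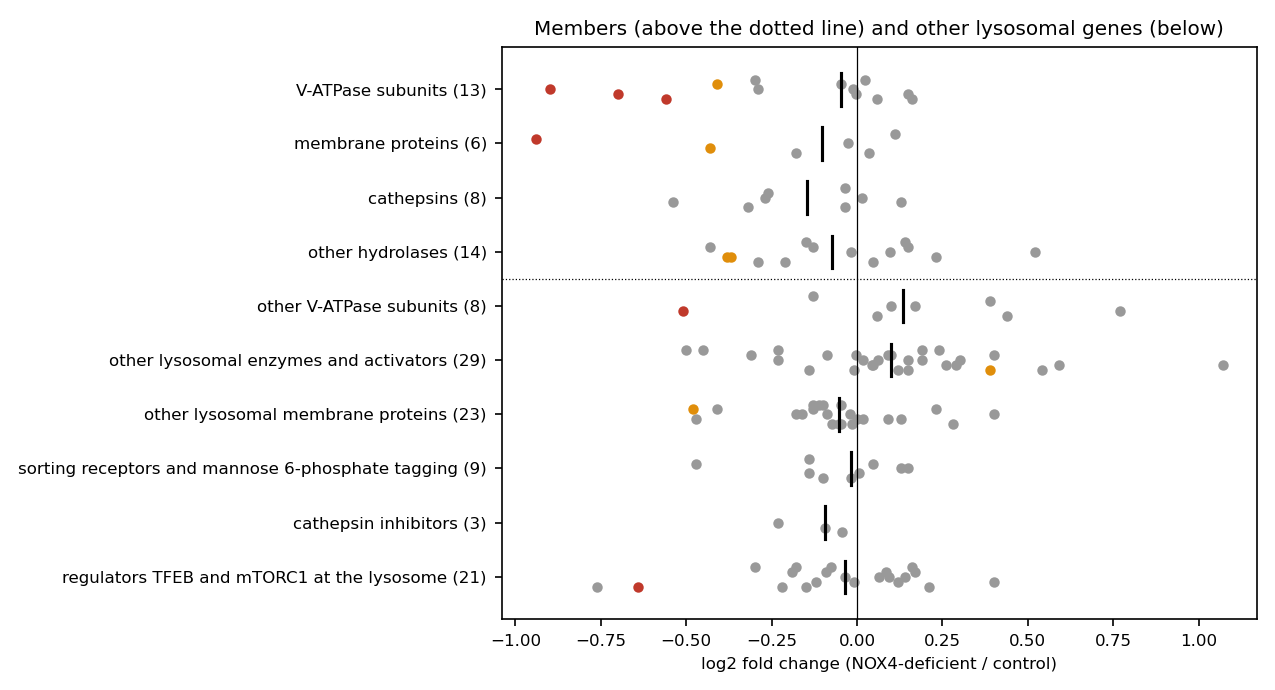
Log2 fold change (x axis, NOX4-deficient over control) of each gene tested in the 4 classes of the 41 genes (above the dotted line) and in 6 lists of other lysosomal genes (below), with the number of genes in parentheses; vertical bars are medians, red points were called lower and orange points passed the adjusted p only. The called genes lie in the V-ATPase, membrane and regulator lines, and the median of the other lysosomal enzymes (0.10) lies to the right of 0.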

How the data were processed

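Poly(A) RNA from the gastrocnemius of 4 control and 4 NOX4-deficient mice was made into unstranded libraries and read from both ends. The reads went through nf-core's RNA-seq workflow, and the submitters' processing notes name STAR and GRCm39. Which annotation and which settings of the counter were used is not given in the sources used here. The authors deposited raw counts per gene, 1 column per mouse, without normalization. All 8 columns were matched to a sample by name. Names that repeat an earlier row number 412, and the row with the highest total was used for such a name. The total counts per library, 16350548 to 19804661, set the precision of low genes.

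Counts were analyzed with edgeR 4.0.16 in R 4.3.3 (TMM, filterByExpr, robust glmQLFit, glmQLFTest, genotype as the only term), with Benjamini-Hochberg adjustment over 12725 rows. SEs are the absolute log2 fold change over the square root of F. The common biological coefficient of variation was 0.174. The fit was tested on simulated data with known changes. Single values were compared by exact two-sided permutation over mice. DESeq2 1.42.0 and pydeseq2 0.5.4, other scalings and filters, a replicate block and leaving out each library were alternatives.

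The 41 genes, the lists and the tests were chosen with earlier results of these data known, and counts over them are descriptions. Values per mouse are given for genes called, genes whose groups do not overlap and the 3 smallest p of each class, and for genes outside the 41 that were called in a list. Where a list had no call, its 2 genes with the smallest p are named with their log2 fold change. *Atp6v0c*, *Ctss*, *Gla*, *Lamp1*, *Tfeb* and its relatives, *Rragb* and the other forms of V-ATPase subunits were added after their values were seen. Overlapping genes were taken from GENCODE M21. The p-values measure the spread between these 8 mice.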

Additional observations from a re-analysis of the deposited data

Results flagged for a closer look

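In 82 groups of 4 libraries (41 genes in 2 genotypes), 4 held a library set apart by Dixon's ratio (its gap to the nearest other library over the range of all 4) at the 95% level, where chance gives about 1 in 20 groups, or 4.1. For *Npc1* the ratio was 0.905, with control 4 at 151 CPM and the other controls at 79.1 to 85.9 CPM. For *Lamp2* it was 0.89, with control 4 at 141 CPM and the others at 108 to 112 CPM. Without control 4 the log2 fold change was -0.67 for *Npc1* and -0.32 for *Lamp2*. For *Psap* the ratio was 0.931, with control 1 at 905 CPM and the others at 841 to 846 CPM. For *Ctss* it was 0.871, with control 1 at 8.63 CPM and the others at 3.76 to 4.39 CPM. No NOX4-deficient library was set apart in this way.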

How the results depend on the processing

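The same 4 genes were called lower, and none higher, with size factors of DESeq2, with library size alone, without a filter on low counts, with at least 10 counts in every sample, without the robust fit, by DESeq2 and by pydeseq2. At an adjusted p below 0.01 the count of lower genes was 1, and with no minimum fold change it was 8. Leaving out 1 library gave 3 to 4 lower and 0 higher, and the changed calls (*Npc1*, *Atp6v1a*, *Atp6v0c*) are given with the genes. Of the 41 genes, 29 kept their sign in all 16 alternatives. Over all rows tested, 443 were called lower and 341 higher. Without control 4 these were 295 and 204, and without control 2 the higher calls were 227. The cause was not tested.

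Same-numbered mice deviated from their group means with correlations of 0.223, 0.147, 0.041 and 0.0412 for numbers 1 to 4, which does not show that the numbers pair the mice. With the replicate block 4 genes were again called lower and 0 higher, and the calls over all rows rose to 543 lower and 390 higher.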
